A study of Mus musculus with 6 samples.

Results

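NF-kB is a family of transcription factors built as dimers of Rel proteins, which IkB inhibitors hold in the cytoplasm until a kinase complex marks the inhibitor for destruction. Among the genes it switches on are those for its own precursors, for IkB proteins and for A20 and cIAP2, which feed back on the pathway, and for adhesion molecules such as ICAM-1. In stromal cells the pathway is known for answering tumour necrosis factor, interleukin 1 and microbial products with cytokines and leukocyte adhesion. The 10 genes described here were taken by name from the 34745 rows of the table: 4 subunits (Nfkb1, Nfkb2, Rela and Relb), 2 inhibitors (Nfkbia and Nfkbie), 3 feedback or signalling genes (Tnfaip3, Birc3 and Traf1) and the adhesion gene Icam1. The rows were taken by name and not by a threshold on values, but the list was drawn up with earlier results of these data known. All 10 were found.

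The series holds RNA-seq of lung mesenchymal stromal cells (LMSCs) from MMTV-PyMT mice, which carry a polyoma middle T transgene under the mouse mammary tumor virus promoter and develop mammary tumors and lung metastases. The A-LMSC libraries are labelled as from mice of 6 to 7 weeks (adenoma stage) and the PM-LMSC libraries 9 to 10 weeks (pre-metastatic). The M-LMSC libraries are labelled 13 to 14 weeks (metastatic). The paper's methods give slightly older mice for the first 2 stages. The labels' ages are used here, with 2 libraries per stage. All 6 carry the transgene, so tumor stage and the age of the mouse cannot be told apart, and no wild-type library was analysed here. The cells were CD45- adherent cells grown to passage 3 before RNA was taken, so the values describe cultured cells and not the lung itself.

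Values are FPKM, fragment counts scaled by gene length and by library total, which puts genes and libraries on a common scale. Some small differences between libraries still changed with further normalization, as given below. A spacing of low values in each column put the depth at between 14900000 and 20900000 fragments. All 11 stromal markers of a list passed the expression filter, and their FPKM summed to between 1942 and 2781 in a library. Ptprc, which encodes CD45, lay between 0.0254 and 0.0987 FPKM. Other markers differed between stages. The summed FPKM of 9 mesothelial markers was 123 and 182 in A-LMSC, 302 and 425 in PM-LMSC and 204 and 507 in M-LMSC. That of 14 haematopoietic markers was 142.4 and 133, 183 and 85.1, and 432 and 312. Most of each haematopoietic sum was Lyz2, at 115 and 106, 147 and 60.6, and 362 and 250 FPKM. In every library 4 of the 14 stayed below 1 FPKM. The 10 epithelial markers summed to 0.413 and 1.565 FPKM in A-LMSC, 0.9575 and 0.852 in PM-LMSC, and 2.76 and 4.18 in M-LMSC. Of these, 8 stayed below 1 FPKM in every library and 7 were highest in both M-LMSC libraries. How many of all genes were highest in both was not counted. The 7 endothelial markers summed to 1.77 and 1.73, 1.70 and 1.74, and 2.97 and 2.735 FPKM in the same order.

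None of the NF-kB members passed the test between any pair of stages. Their levels ranged from 0.0238 FPKM for Traf1 to 40.3 FPKM for Rela as means of the 6 libraries. Members were compared with limma on log2(FPKM + 1), a scale that understates the change of low genes, over the 10279 genes whose mean FPKM reached 1, with Benjamini-Hochberg adjustment at 0.05. The filter kept 9 members and left out Traf1. In PM-LMSC against A-LMSC 0 of 9 members were called and 1 had an unadjusted p under 0.05, where 4 of all tested genes were called (0.0389%) and 6.53% had such a p. In M-LMSC against A-LMSC the counts were 0 and 0, against 7 genes in all (0.0681%) and 14.6% with such a p. In M-LMSC against PM-LMSC they were 0 and 0, against 3 genes (0.0292%) and 8.94%. With the replicate block, which compares libraries of the same number, 0 of 9 members were again called in each comparison, while 30, 403 and 43 genes were called in all (0.292%, 3.92% and 0.418%). Of the 27 intervals of the 9 members in the 3 comparisons, 26 included 0, so that a p above the threshold here leaves room for changes of the widths given below and does not show that the levels were alike.

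**Figure D1:**
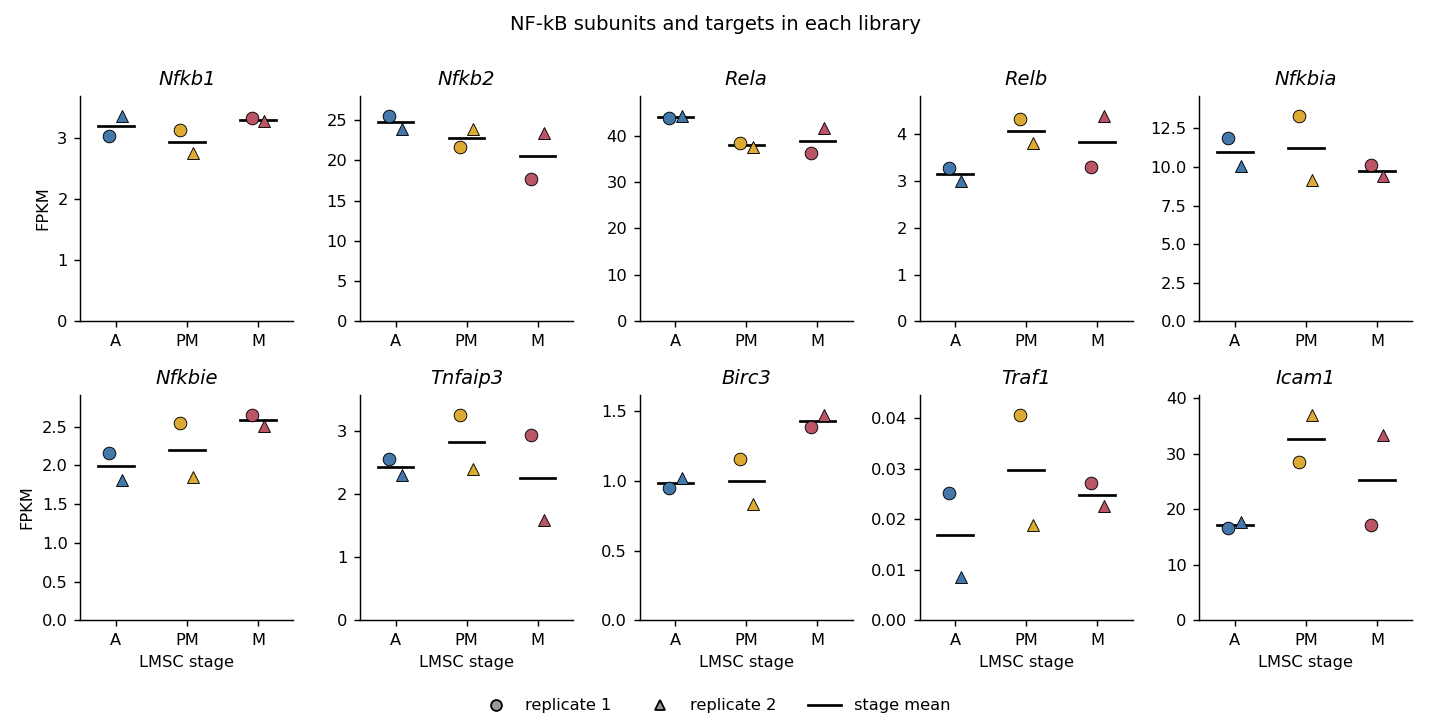
FPKM (y axes, starting at 0 and scaled for each gene) of the 10 members in the 2 libraries of each stage (x axes; A, PM and M stand for A-LMSC, PM-LMSC and M-LMSC), with circles for replicate 1, triangles for replicate 2 and a bar at the mean of the stage. Icam1 stands near 17 FPKM in both A-LMSC libraries and spreads from 17.2 to 33.4 FPKM in M-LMSC, and Birc3 is highest in the 2 M-LMSC libraries.

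Rela encodes p65, the subunit that carries the activation domain of the canonical dimer, and had the highest FPKM of the members at every stage. Its gene (ENSMUSG00000024927, chr19:5637483-5648130 on the plus strand of GRCm38) was at 43.7 and 44.2 FPKM in A-LMSC, 38.5 and 37.6 in PM-LMSC, and 36.2 and 41.6 in M-LMSC. Both A-LMSC libraries lay above all 4 later ones. The PM-LMSC mean was 0.865 times that of A-LMSC (38.1 ± 0.604 against 44.0 ± 0.333 FPKM, SD, n = 2), a log2 difference of -0.20 with a 95% interval of -0.47 to 0.06 and an adjusted p of 0.84 in limma. For M-LMSC against A-LMSC the log2 difference was -0.18 (-0.44 to 0.09, adjusted p = 0.48). It was -0.080 without M-LMSC replicate 1, -0.28 without M-LMSC replicate 2 and -0.027 under the replicate block with a correction for GC content and length.

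Nfkb1 encodes p105, the precursor of p50, the partner of p65 in the canonical dimer. This gene (ENSMUSG00000028163, chr3:135584655-135691547, minus strand) was at 3.03 and 3.36 FPKM in A-LMSC, 3.13 and 2.76 in PM-LMSC, and 3.33 and 3.28 in M-LMSC. The A-LMSC values overlapped those of both later stages, and both M-LMSC values were above both PM-LMSC values. No stage differed from another by more than 0.13 on the log2 scale. The Rela FPKM was between 10.9 and 14.4 times the Nfkb1 FPKM in a library. In the annotation used here the merged exons of Nfkb1 come to 12061 bases and those of Rela to 3072. The lengths by which the FPKM were scaled are not given, so the size of this ratio depends on lengths that are not known.

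Nfkb2 encodes p100, the precursor of p52 and itself an IkB-like inhibitor of RelB. Its values (ENSMUSG00000025225, chr19:46304320-46312385, plus strand) were 25.5 and 23.9 FPKM in A-LMSC, 21.6 and 23.9 in PM-LMSC, and 17.7 and 23.4 in M-LMSC. Neither later stage overlapped with A-LMSC, though the lower A-LMSC library exceeded the higher PM-LMSC library by only 23.94 against 23.88 FPKM. The M-LMSC mean was 0.832 times that of A-LMSC, with a log2 difference of -0.27 (95% interval -0.63 to 0.10, adjusted p = 0.45 in limma). Without M-LMSC replicate 1 that difference was -0.07 and without M-LMSC replicate 2 it was -0.46. The exons of Nfkb2 overlap those of AC114539.1 by 531 bases and of Psd by 299 bases on the opposite strand, and reads from there cannot be told apart unless the counting used strand, which is not given in the sources used here.

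Relb encodes RelB, the partner of p52 in the non-canonical branch. Its gene (ENSMUSG00000002983, chr7:19606217-19629438, minus strand) was at 3.29 and 3.00 FPKM in A-LMSC, 4.33 and 3.83 in PM-LMSC, and 3.30 and 4.39 in M-LMSC. All 4 later libraries were above both A-LMSC libraries, M-LMSC replicate 1 by 3.302 against 3.288 FPKM. The PM-LMSC mean was 1.30 times that of A-LMSC (4.08 ± 0.359 against 3.14 ± 0.206 FPKM, SD, n = 2), a log2 difference of 0.29 with a 95% interval of -0.06 to 0.65 and an adjusted p of 0.83. For M-LMSC against A-LMSC it was 0.22 (-0.14 to 0.57, adjusted p = 0.52), with 0.38 without M-LMSC replicate 1 and 0.055 without M-LMSC replicate 2.

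Among the 9 tested members, Relb was thus the 1 whose 4 later libraries all exceeded A-LMSC (10.7% of all tested genes did), and Nfkb2 and Rela were the 2 that were lower in all 4 (10.7%). After quantile normalization or median centring the count of members higher in all 4 became 0, and after quantile normalization the count lower in all 4 became 1. In PM-LMSC against A-LMSC alone, 2 members did not overlap and were higher, Relb and Icam1 (19.6% of all genes), and 2 were lower, Nfkb2 and Rela (19.7%). In M-LMSC against A-LMSC 3 were higher, Relb, Nfkbie and Birc3 (27.1%), and 2 were lower, Nfkb2 and Rela (24.4%). Between the later stages 2 were higher in M-LMSC, Nfkb1 and Birc3 (17.8%), and 0 were lower (16.7%). Read against these shares, the counts are no result about the members.

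**Figure D2:**
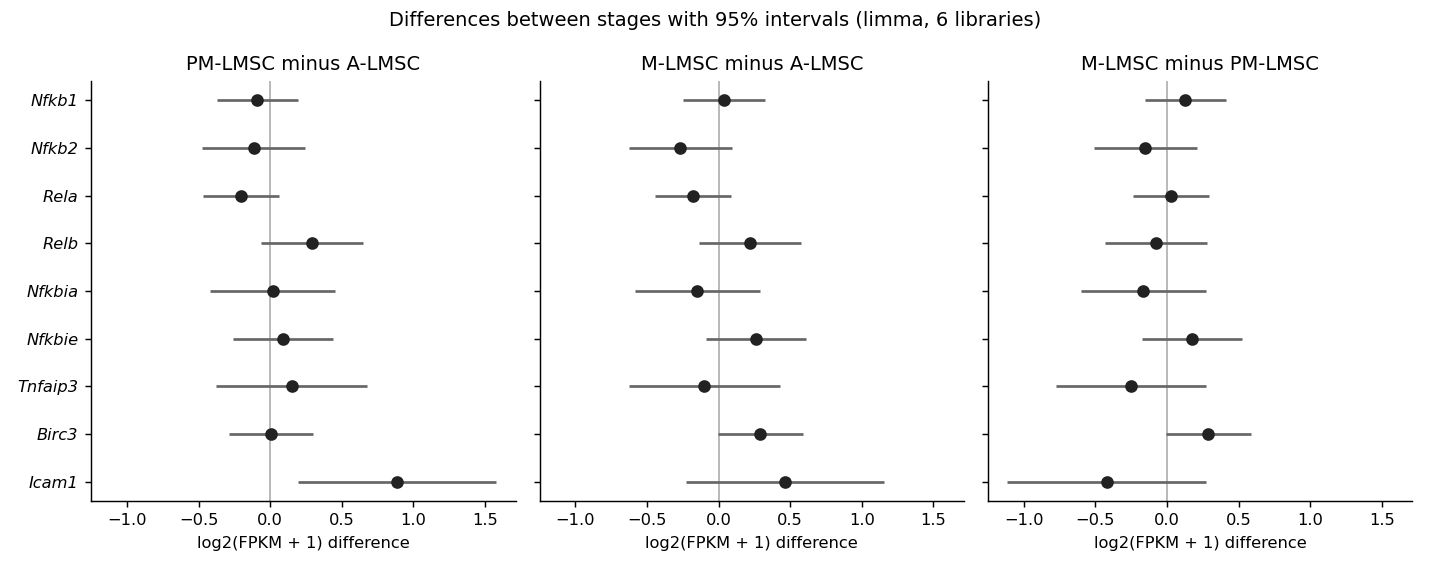
Differences between stage means on the log2(FPKM + 1) scale (x axes) for the 9 tested members (y axis) in the 3 comparisons, with points at the limma estimates and lines for their 95% intervals from all 6 libraries. Only the interval of Icam1 in PM-LMSC minus A-LMSC, 0.19 to 1.58, lies wholly on 1 side of 0.

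Nfkbia encodes IkB alpha, the inhibitor that NF-kB itself replenishes within each round of signalling, and Nfkbie encodes IkB epsilon, a slower relative. Rel dimers recognise a short sequence, the kappa B consensus, and the stretches around matches to it are shown because feedback on these genes runs through such sequences. A match here is a description of the letters and not a measured site. RefSeq promoter windows of GRCm38.p6, from 250 bases before to 50 bases after a gene's start, were at hand for 8 of the 10 members and for neither Nfkb1 nor Relb. The consensus was found on either strand in the windows of 4 of these 8 genes, against 9.55% of 27025 genes, and in 8.46% of 32851 windows of the same length. The members were named as subunits and feedback targets of NF-kB, so their share is not independent of that choice and is no result. The consensus was GGGRNNYYCC, where R is A or G, Y is C or T and N is any base. The 30 bases around 5 of the matches are given 5′ to 3′ along the gene's strand, with the match in capitals. The printed matches of Nfkbia and Tnfaip3 lie on the opposite strand, so their capitals spell its reverse complement.
Nfkbia, chr12:55492657-55492686, minus strand: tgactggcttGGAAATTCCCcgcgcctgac
Nfkbie, chr17:45555584-45555613, plus strand: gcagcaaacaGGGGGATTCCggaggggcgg
Tnfaip3, chr10:19015403-19015432, minus strand: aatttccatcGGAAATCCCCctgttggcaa
Nfkb2, chr19:46304688-46304717, plus strand: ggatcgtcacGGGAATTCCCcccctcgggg
Nfkb2, chr19:46305695-46305724, plus strand: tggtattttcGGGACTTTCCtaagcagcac
Counted from RefSeq starts, the capitals end 20 bases before that of Nfkbia, 97 before that of Nfkbie and 3 before a start of Tnfaip3. Tnfaip3 has another RefSeq start as well. The gene spans given here for Tnfaip3 and Nfkb2 reach further upstream, so their printed stretches lie inside these spans. Nfkb2 has several starts and 5 positions of the consensus in its windows, partly overlapping, and Tnfaip3 has another match that is not printed. In the windows of Rela, Birc3, Traf1 and Icam1 these letters were not found, which says nothing about sites elsewhere or of another spelling. Of the 4 genes with a match, Nfkbie had a positive M-LMSC minus A-LMSC difference and Nfkbia, Tnfaip3 and Nfkb2 had negative ones, with none called.

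The Nfkbia gene (ENSMUSG00000021025, chr12:55489410-55492647, minus strand) was at 11.9 and 10.0 FPKM in A-LMSC, 13.3 and 9.18 in PM-LMSC, and 10.1 and 9.40 in M-LMSC. The groups overlapped in every comparison, and PM-LMSC held both the highest and the lowest library. Against A-LMSC the log2 difference was 0.02 in PM-LMSC (95% interval -0.42 to 0.45) and -0.15 in M-LMSC (-0.58 to 0.29, adjusted p = 0.71). The latter was -0.037 without A-LMSC replicate 1 and -0.26 without A-LMSC replicate 2. The sign of the first turned with the scaling, since it was -0.01 after median centring.

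Nfkbie (ENSMUSG00000023947, chr17:45555703-45563169, plus strand) was at 2.16 and 1.82 FPKM in A-LMSC, 2.54 and 1.85 in PM-LMSC, and 2.65 and 2.51 in M-LMSC. Both M-LMSC libraries were above both A-LMSC libraries, with PM-LMSC replicate 1 between the M-LMSC values. The M-LMSC mean was 1.30 times that of A-LMSC (2.58 ± 0.0934 against 1.99 ± 0.242 FPKM, SD, n = 2), a log2 difference of 0.26 (95% interval -0.09 to 0.61, adjusted p = 0.44 in limma). Its estimated fragments numbered between 89.3 and 137 in a library.

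Set side by side within a library, the 2 inhibitors separated M-LMSC from the other stages. The FPKM of Nfkbia was 5.49 and 5.53 times that of Nfkbie in A-LMSC, 5.23 and 4.98 times in PM-LMSC, and 3.83 and 3.74 times in M-LMSC. Both M-LMSC ratios were below those of the 4 other libraries, and the 2 libraries of a stage lay close together. The ratio of the non-canonical partners, Relb to Nfkb2, was 0.129 and 0.125 in A-LMSC, 0.201 and 0.160 in PM-LMSC, and 0.187 and 0.188 in M-LMSC, with both A-LMSC values lowest. By contrast the ratio of Nfkbia to Rela, an inhibitor to its main target, overlapped between stages and lay between 0.226 and 0.346. These ratios were picked with the levels known and carry no test. How many other pairs of genes separate a stage in this way was not counted.

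**Figure D3:**
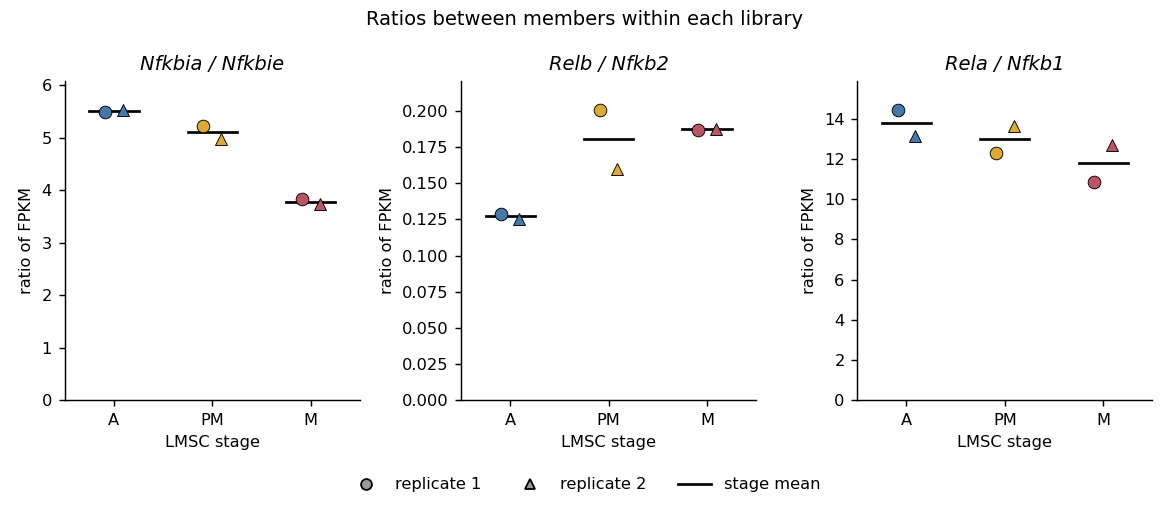
Ratio of the FPKM of 2 members (y axes, starting at 0) in each library by stage (x axes), for Nfkbia to Nfkbie, Relb to Nfkb2 and Rela to Nfkb1, with circles for replicate 1, triangles for replicate 2 and a bar at the stage mean. The Nfkbia to Nfkbie ratio is lowest in M-LMSC (3.83 and 3.74) and the Relb to Nfkb2 ratio is lowest in A-LMSC (0.129 and 0.125). The size of each ratio depends on gene lengths that are not given.

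Tnfaip3 encodes A20, an enzyme that edits ubiquitin chains and shuts off signalling to NF-kB. Its level (ENSMUSG00000019850, chr10:19000910-19015657, minus strand) was 2.55 and 2.30 FPKM in A-LMSC, 3.25 and 2.39 in PM-LMSC, and 2.94 and 1.58 in M-LMSC. M-LMSC replicate 2 was the lowest of the 6 libraries and M-LMSC replicate 1 the second highest, and all stages overlapped. The log2 difference of M-LMSC against A-LMSC was -0.10 (95% interval -0.63 to 0.43, adjusted p = 0.84), and it was 0.20 without M-LMSC replicate 2.

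Birc3 encodes cIAP2, a ubiquitin ligase of the TNF receptor complex that also restrains the non-canonical kinase. The gene (ENSMUSG00000032000, chr9:7848699-7873186, minus strand) was at 0.947 and 1.02 FPKM in A-LMSC, 1.16 and 0.831 in PM-LMSC, and 1.39 and 1.47 in M-LMSC. Both M-LMSC libraries were above the other 4. The M-LMSC mean was 1.45 times that of A-LMSC (1.43 ± 0.0590 against 0.983 ± 0.0517 FPKM, SD, n = 2), with a log2 difference of 0.29 (95% interval -0.0035 to 0.59), an unadjusted p of 0.052 and an adjusted p of 0.35 in limma. With the replicate block the adjusted p was 0.20. Between 66.2 and 123 estimated fragments stood behind a value, and 369 bases of its transcripts are shared at 99.2% identity with Gm7019, so some reads may have been counted for either.

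The libraries with the higher Birc3 levels were also those with the higher levels of haematopoietic markers. All 8 tested markers of that list had higher values in both M-LMSC libraries than in both A-LMSC libraries, with a median log2 difference of 1.12. Of all tested genes, 27.1% were higher without overlap in that comparison. Lyz2, which encodes lysozyme of macrophages, was at 115 and 106 FPKM in A-LMSC, 147 and 60.6 in PM-LMSC, and 362 and 250 in M-LMSC. None of the 8 markers was called in M-LMSC against A-LMSC without the block and 7 were with it. The shares of all tested genes called there were 0.0681% and 3.92%. In bulk libraries more cells of a type and more RNA per cell cannot be told apart, and the part of these markers in the Birc3 values, or in those of Nfkbie, which was also higher in both M-LMSC libraries than in both A-LMSC libraries, was not tested.

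Traf1 encodes an adaptor of TNF receptors whose expression is usually low outside lymphoid cells. This member (ENSMUSG00000026875, chr2:34941750-34961772, minus strand) was at 0.0251 and 0.00855 FPKM in A-LMSC, 0.0405 and 0.0188 in PM-LMSC, and 0.0272 and 0.0226 in M-LMSC. These values correspond to between 1.33 and 5.33 estimated fragments, so no difference between stages was detectable at this depth and no fold change is given.

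Icam1 encodes the adhesion molecule ICAM-1, which leukocytes bind through their integrins, and showed the largest differences among the members. The gene (ENSMUSG00000037405, chr9:21015985-21028817, plus strand) was at 16.6 and 17.7 FPKM in A-LMSC, 28.5 and 36.9 in PM-LMSC, and 17.2 and 33.4 in M-LMSC. Both PM-LMSC libraries were above both A-LMSC libraries, while M-LMSC split into 1 library at the A-LMSC level and 1 at the PM-LMSC level. The PM-LMSC mean was 1.91 times that of A-LMSC (32.7 ± 5.95 against 17.1 ± 0.764 FPKM, SD, n = 2). On the log2 scale this was 0.88, SE 0.29, with a 95% interval of 0.19 to 1.58, an unadjusted p of 0.020 and an adjusted p of 0.59 in limma. Among the 10279 tested genes it ranked 61 by size of the rise and 345 by p. The adjusted p was 0.12 with the replicate block and 0.092 when the A-LMSC and PM-LMSC libraries were fitted alone.

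For M-LMSC against A-LMSC the Icam1 difference rested on a single library. It was 0.46 with both (95% interval -0.23 to 1.16, adjusted p = 0.48), 0.92 without M-LMSC replicate 1 (adjusted p = 0.076) and 0.0040 without M-LMSC replicate 2 (adjusted p = 0.99), each with a lone M-LMSC library assumed to vary like the other groups. M-LMSC against PM-LMSC gave -0.42 (-1.12 to 0.27) and turned to 0.04 without M-LMSC replicate 1. The exons of Icam1 overlap those of Gm47079 by 511 bases on the opposite strand.

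The summed level of markers of the mesothelium, the layer that covers the lung, split the libraries as Icam1 did, though not every marker did so. Msln, which encodes mesothelin, was at 8.87 and 12.7 FPKM in A-LMSC, 33.8 and 47.7 in PM-LMSC, and 12.6 and 48.2 in M-LMSC. The 3 libraries with the lowest summed level of the 9 mesothelial markers, both of A-LMSC and M-LMSC replicate 1, were the 3 with the lowest Icam1 level, and the other 3 held the highest of both. Relb was also lowest in the same 3 libraries (3.00 to 3.30 FPKM, against 3.83 to 4.39 in the others). Of the 8 markers tested, 7 had values in PM-LMSC above A-LMSC without overlap and 1, Krt19, lay below it. Of all tested genes, 19.6% lay above and 19.7% below in this way. None of the 8 markers was called in PM-LMSC against A-LMSC, and Krt19 was called lower in M-LMSC against A-LMSC. The shares of all tested genes called were 0.0389% and 0.0681%. With the replicate block 3 markers were called in PM-LMSC against A-LMSC (Lrrn4, Krt8 and Krt18) and 7 in M-LMSC against A-LMSC, all but Msln. The shares of all tested genes called with the block were 0.292% and 3.92%. Wt1, a transcription factor gene of the mesothelium, was at 1.72 and 1.79 FPKM in A-LMSC, 3.40 and 3.85 in PM-LMSC, and 3.76 and 6.31 in M-LMSC, so that M-LMSC replicate 1 was not low for it. Krt19 was highest in A-LMSC (13.8 and 17.3 FPKM) and lowest in M-LMSC (4.92 and 4.49). No marker of the list was at 0 in every library. The part of mesothelial cells or transcripts in the Icam1 and Relb values was not tested.

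**Figure D4:**
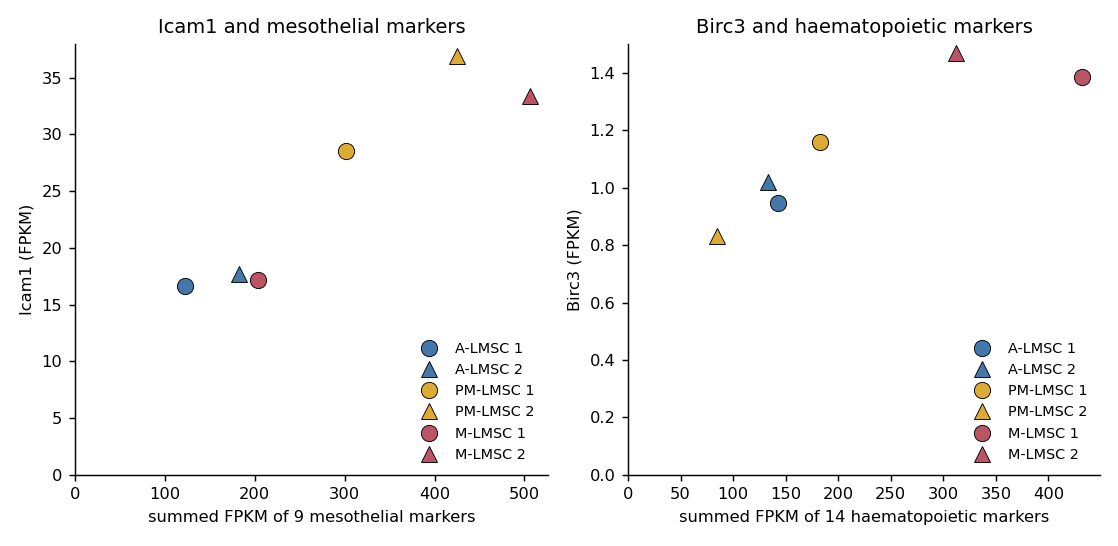
Left, Icam1 level (FPKM, y axis) against the summed FPKM of 9 mesothelial markers (x axis), and right, Birc3 level against the summed FPKM of 14 haematopoietic markers, with 1 point per library, colors for stages and circles or triangles for replicates 1 and 2. The 3 libraries with the lowest mesothelial sums (123, 182 and 204) have Icam1 between 16.6 and 17.7 FPKM. The 2 M-LMSC libraries have the highest Birc3 levels and the highest haematopoietic sums. Most of each haematopoietic sum is Lyz2, and the largest part of each mesothelial sum is Upk1b.

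By level, the members ran from Rela at 40.3 FPKM over Icam1 at 25.1, Nfkb2 at 22.7, Nfkbia at 10.7, Relb at 3.69, Nfkb1 at 3.15, Tnfaip3 at 2.50, Nfkbie at 2.25 and Birc3 at 1.14 down to Traf1, as means over the 6 libraries. Neighbours in this order did not differ beyond their spread for Icam1 and Nfkb2, where 3 of 6 libraries kept the order, and the ranges of Relb, Nfkb1, Tnfaip3 and Nfkbie overlapped step by step. The gaps between Nfkb2 and Nfkbia, Nfkbia and Relb, Nfkbie and Birc3, and Birc3 and Traf1 held without overlap over all libraries. Rela exceeded Icam1 in each library, although their ranges touched across libraries. The order between genes depends on the gene lengths behind the FPKM, which are not given.

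Variation within a stage was as large as that between stages for several members. On the log2 scale, replicate 2 minus replicate 1 reached 0.92 for Icam1 and -0.61 for Tnfaip3 in M-LMSC and -0.49 for Nfkbia in PM-LMSC. In A-LMSC the widest such gap was -0.22, for Nfkbia. The median log2 difference of the 9 tested members was 0.02 in PM-LMSC and 0.04 in M-LMSC against A-LMSC and -0.07 between the later stages, beside medians of 0.01, 0.03 and -0.0024 over all tested genes. Both comparisons with A-LMSC share its 2 libraries.

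The 5 genes outside all lists whose pattern over the 6 libraries was most like the mean standardized profile of the 9 tested members were 6030458C11Rik, Gm6741, Pcdhgb8, Ddi2 and Cebpg, with Pearson's r between 0.945 and 0.968 as a description. That profile was highest in PM-LMSC replicate 1 (0.492) and M-LMSC replicate 2 (0.321) and lowest in PM-LMSC replicate 2 (-0.447), so it followed single libraries and not the stages. Cebpg, which encodes a leucine zipper transcription factor, was at 2.67 and 2.64 FPKM in A-LMSC, 3.55 and 2.48 in PM-LMSC, and 2.90 and 3.39 in M-LMSC.

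The rest of the pathway was described with 6 lists of 90 genes, of which 64 passed the expression filter. No listed gene was called in any of the 3 comparisons in limma, while 4, 9 and 9 of the 64 had an unadjusted p under 0.05 when PM-LMSC and A-LMSC, M-LMSC and A-LMSC, and the later stages were compared, beside 6.53%, 14.6% and 8.94% of all tested genes. With the replicate block 6 genes were called in M-LMSC against A-LMSC and 0 in both others. All 6 were targets.

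Ligands that start the pathway were mostly near the floor. Only 2 of 11 passed the filter, Tnfsf12, which encodes TWEAK, and Tnfsf13b, which encodes BAFF. Tnf reached at most 0.0595 FPKM, and Cd40lg was listed at 0 in every library. Tnfsf12 lay between 18.5 and 23.5 FPKM in the 6 libraries, with an M-LMSC minus A-LMSC log2 difference of 0.0061, and that of Tnfsf13b was -0.15.

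Receptors were more abundant, and 9 of 13 were tested. Tnfrsf12a, the TWEAK receptor, was at 440 and 492 FPKM in A-LMSC, 469 and 550 in PM-LMSC, and 342 and 326 in M-LMSC, with both M-LMSC libraries lowest (log2 difference of M-LMSC against A-LMSC -0.48, SE 0.13, adjusted p = 0.19). Ltbr, the lymphotoxin beta receptor of the non-canonical branch, gave -0.22. The largest positive differences were those of the interleukin 1 receptor gene Il1r1 at 0.38 (adjusted p = 0.23) and of Tlr4, the endotoxin receptor, at 0.31, which was 0.091 without M-LMSC replicate 1 and 0.54 without M-LMSC replicate 2. The receptors' median of 0.09 stood beside 0.03 for all tested genes.

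Adaptors and kinases, which pass the signal on, had medians of 0.04 over 15 tested adaptors and 0.03 over 11 tested Rel, IkB and kinase genes in M-LMSC against A-LMSC. Among adaptors Rbck1, a subunit of the linear ubiquitin ligase, gave -0.38 and Traf2 -0.19, while Irak4 gave 0.17 and Irak3 0.13. Among the others, Nfkbiz and Nfkbib, 2 further IkB family genes, gave -0.30 and -0.21, and the kinase complex genes Tab2 and Map3k7 gave 0.20 and 0.17. The lowest adjusted p of these 8 genes was 0.34, that of Nfkbiz. Several rested on 1 library: without M-LMSC replicate 1 and without M-LMSC replicate 2, Rbck1 gave -0.070 and -0.69, Traf2 -0.013 and -0.37, Nfkbib -0.10 and -0.33, Tab2 0.051 and 0.35, and Map3k7 0.083 and 0.26.

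Negative regulators other than the members had a median of 0.26 in M-LMSC against A-LMSC, with 6 of 9 tested genes above 0. All tested genes had a median of 0.03, and their share above 0 was not counted. The ubiquitin ligase Itch gave 0.33 and Tax1bp1, a partner of A20, gave 0.31, with adjusted p values of 0.38 and 0.57, while Zc3h12a gave -0.12 and the deubiquitinase gene Otulin -0.11. Without M-LMSC replicate 1 and without M-LMSC replicate 2, Itch gave 0.21 and 0.45 and Tax1bp1 0.024 and 0.59. In PM-LMSC against A-LMSC their median was 0.15.

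Of 28 other known targets, 18 were tested and their median in M-LMSC against A-LMSC was 0.27, with 14 above 0. The median of all tested genes was 0.03 there, and their share above 0 was not counted. With the replicate block Lif, Ccl2, Ccl7, Cflar, Bcl2a1b and Ch25h rose, 6 of 18 where 3.92% of all genes were called in either direction. After a correction for GC content and length was added to the block, Lif and Ch25h remained called. Ch25h, which makes an oxysterol, was at 21.8 and 25.3 FPKM in A-LMSC, 24.8 and 29.4 in PM-LMSC, and 38.1 and 43.4 in M-LMSC, a log2 difference of 0.77 (adjusted p = 0.017 with the replicate block and 0.11 without). Lif, which encodes a cytokine of the interleukin 6 family, was at 7.49 and 9.37, 10.8 and 12.4, and 11.3 and 13.7 FPKM in the same order, with a log2 difference of 0.52 (0.042 and 0.22).

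The chemokine genes Ccl2 and Ccl7 had the same order of replicates at each stage, with replicate 1 above replicate 2. Ccl2 was at 18.5 and 10.3 FPKM in A-LMSC, 27.3 and 19.2 in PM-LMSC, and 28.6 and 19.2 in M-LMSC. Its log2 difference of M-LMSC against A-LMSC was 0.72 (adjusted p = 0.025 with the block and 0.35 without). Ccl7 was at 51.1 and 24.6 FPKM in A-LMSC, 59.2 and 40.9 in PM-LMSC, and 80.4 and 53.4 in M-LMSC, a log2 difference of 0.86 (adjusted p = 0.027 with the block and 0.35 without). Without A-LMSC replicate 1 it was 1.38 and without A-LMSC replicate 2 it was 0.35. Cflar, which encodes the caspase inhibitor c-FLIP, gave 0.68 (0.029 and 0.12). Bcl2a1b, a survival gene of blood cells and 1 of a set of near-identical copies among which reads may be split, gave 1.38 (0.0497 and 0.23) and ranged from 0.154 to 5.55 FPKM. The M-LMSC libraries in which these targets were higher are also those with the higher haematopoietic markers. Lif and Ccl2 were near their M-LMSC levels in PM-LMSC as well. There the haematopoietic sums were 183 and 85.1 FPKM, beside 142.4 and 133 in A-LMSC. The part of these markers in the targets was not tested.

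On the other side, Mmp3, which encodes stromelysin, was at 34.7 and 32.7 FPKM in A-LMSC, 20.6 and 20.6 in PM-LMSC, and 18.3 and 25.1 in M-LMSC, with both A-LMSC libraries above the other 4 (M-LMSC against A-LMSC -0.63, adjusted p = 0.16). Without M-LMSC replicate 2 it was -0.85 (adjusted p = 0.048), where the lone M-LMSC library is assumed to vary like the other groups. Csf1, the macrophage growth factor gene, was between 341 and 378 FPKM in 5 libraries and at 174 FPKM in M-LMSC replicate 2. Its log2 difference of -0.46 became -1.02 without M-LMSC replicate 1 (adjusted p = 0.023) and 0.10 without M-LMSC replicate 2, again with the spread taken from the other groups. The first of these rests on the library at 174 FPKM alone.

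**Figure D5:**
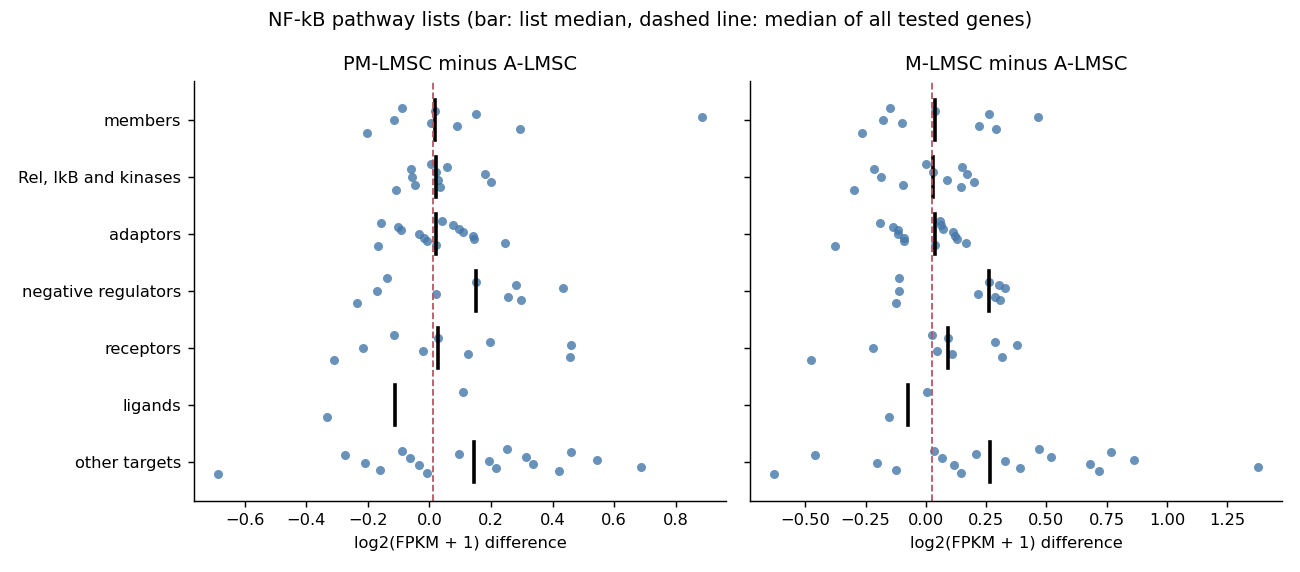
Differences on the log2(FPKM + 1) scale (x axes) of PM-LMSC minus A-LMSC (left) and M-LMSC minus A-LMSC (right) for the tested genes of the members and of 6 pathway lists (y axis), with 1 point per gene, a bar at each list's median and a dashed line at the median of all 10279 tested genes. In M-LMSC the medians of the negative regulators (0.26) and the other targets (0.27) lie to the right of the dashed line at 0.03, and the members' median (0.04) lies near it.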

How the data were processed

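RNA-seq libraries of cultured LMSCs, 2 per stage, were compared. The authors deposited 1 table of FPKM values per gene and library; the submitters' processing notes name TopHat2 2.0.9 and mm10, and the counting tool, its strand setting and the annotation are not given in the sources used here. All 6 columns were matched to stages by the labels, and 0 columns were left unmatched. On the log2(FPKM + 1) scale, genes whose mean reached 1 FPKM were tested two-sided by limma 3.58.1 under R 4.3.3, with a mean for each stage, all 6 libraries in the fit and eBayes set to follow a trend. The procedure was tested on simulated data. The steps between low values gave an estimate of depth but not whole reads, so no count model was run. Replicates are libraries that the labels number and the study describes as separate mice. The study also sequenced a further mouse of each stage, which is held in another series and was not used here. Same-numbered libraries deviated together (correlations across genes of 0.238, 0.307 and 0.491), so the number was also fitted as a block. Positions, lengths and overlaps come from GENCODE M21 of GRCm38, which is mm10, and shared sequence from blastn 2.17.0. Named pathway genes were the 2 with the largest positive and the 2 with the largest negative difference of each list in M-LMSC against A-LMSC, and every gene called. Other genes named were picked with their values in view. The members and lists were chosen with earlier results of these data known. Alternatives were a pseudocount of 0.1, no expression filter, quantile normalization, median centring, a fit to just the stages compared, the block with and without a correction for GC content and length, and each library left out.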

Additional observations from a re-analysis of the deposited data

Results flagged for a closer look

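Among the members and the 64 tested pathway genes, 73 genes in all, 2 had PM-LMSC and M-LMSC on opposite sides of A-LMSC in every library (2.74%, beside 2.88% of all tested genes). Vcam1, which encodes a leukocyte adhesion molecule, was at 12.2 and 12.4 FPKM in A-LMSC, 9.69 and 10.3 in PM-LMSC, and 13.5 and 18.2 in M-LMSC, with a log2 difference of M-LMSC against PM-LMSC of 0.60 (SE 0.15, adjusted p = 0.34 in limma and 0.11 with the replicate block). Irak3, which encodes a brake on Toll-like receptor signalling, was at 1.59 and 1.56, 1.37 and 1.26, and 1.90 and 1.75 FPKM, with a difference of 0.29 (SE 0.11, adjusted p = 0.52 and 0.26). Neither difference passed the threshold. With 2 libraries per stage, no library could be tested as an outlier of its group.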

How the results depend on the processing

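The count of members called was 0 in each comparison under all 13 alternatives. The number of all genes called moved more. For PM-LMSC against A-LMSC it was 4, with 1 when no expression filter was used, 21 when those stages were fitted alone, 30 with the replicate block and 1 to 28 with a library left out. For M-LMSC against A-LMSC it was 7, with 3 without the filter, 1 for those stages alone, 403 with the replicate block, 289 with the block and a correction for GC content and length, and 1 to 90 with a library left out. For the later stages it was 3, with 43 under the replicate block, 6 under the block with the correction and 2 to 25 with a library left out. The replicate block changed no other call of a member or pathway gene named than those given with the targets.

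Of 351 comparisons of a member's difference with an alternative, 328 kept the sign and 23 reversed it, and none of these differences was called. In PM-LMSC against A-LMSC, Nfkbia turned to -0.013 after median centring, and Birc3 to -3.7e-05 with a pseudocount of 0.1, -0.048 after quantile normalization, -0.027 after centring and -0.0067 under the block with the correction. In M-LMSC against A-LMSC, Nfkb1 turned to -0.016 after quantile normalization, -0.012 after centring and -0.13 under the block with the correction. Under the last setting Relb turned to 0.0096 between the later stages, and Zc3h12a to 0.0093 in M-LMSC against A-LMSC, where Tnfsf12 turned to -0.043 after centring.

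With a library left out, PM-LMSC minus A-LMSC ranged from -0.23 to 0.26 for Nfkbia, -0.068 to 0.25 for Nfkbie, -0.011 to 0.31 for Tnfaip3 and -0.11 to 0.12 for Birc3. M-LMSC minus A-LMSC ranged from -0.020 to 0.094 for Nfkb1, -0.40 to 0.20 for Tnfaip3, -0.26 to 0.037 for Otulin, -0.36 to 0.052 for Tnfsf13b, -0.041 to 0.053 for Tnfsf12 and -1.02 to 0.098 for Csf1. M-LMSC minus PM-LMSC ranged from -0.34 to 0.043 for Nfkb2, -0.072 to 0.12 for Rela, -0.24 to 0.088 for Relb, -0.41 to 0.079 for Nfkbia, -0.56 to 0.052 for Tnfaip3 and -0.88 to 0.038 for Icam1. The causes were not tested. With 2 libraries per stage and depths of 14900000 to 20900000 fragments, the intervals of most members span changes in both directions.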
